A study of Mus musculus with 4 samples.

Results

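Leukotrienes are lipid signals made from arachidonic acid, mostly by myeloid cells. The 5-lipoxygenase gene Alox5 encodes the enzyme that turns arachidonic acid into leukotriene A4, and Alox5ap encodes FLAP, the membrane protein that presents the substrate to it. Leukotriene A4 is then hydrolysed to the neutrophil attractant leukotriene B4 by the product of Lta4h, or joined to glutathione by the product of Ltc4s to give leukotriene C4, the first of the cysteinyl leukotrienes. Mgst2 encodes a microsomal glutathione transferase related to leukotriene C4 synthase, and in human cells it can also make leukotriene C4. Mgst1 and Mgst3 encode related membrane proteins, and the product of Mgst1 is known mainly for detoxification and peroxide reduction.

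These 7 genes, of 32227 in the deposited tables, were followed in haematopoietic stem and progenitor cells of mouse bone marrow. All mice were wild type and carried cells of the E0771 breast cancer line, injected 3 days before the operation, and marrow was taken 9 days after it. The surgery group had its femoral artery tied off, the sham group did not, and each had 4 hashtag-labelled replicates, 2 in each of 2 captures called batch 1 and batch 2 here. The sources used here give neither the age of the mice nor the number of mice behind a hashtag, so every error and p-value reflects only how these 8 samples vary, which may be technical. Both groups carried tumour cells, so no comparison with tumour-free marrow can be made. Mgst2 was selected on its difference between surgery and sham in these same cells, so that difference is given below as a description with no test; the other 6 genes were added for their place in the pathway.

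After filtering, 26942 cells carried a single hashtag, 14678 in batch 1 and 12264 in batch 2. Median depth was between 5860.5 and 7190.5 UMIs (unique molecule counts) per cell in the replicates of batch 1 and between 10291 and 12406 in those of batch 2. The deposited captures shared 5 cell barcodes. The treatment label of each capture names a single group, whereas the hashtag labels place both groups in each capture. Replicates were therefore taken from the hashtag names, and every value for surgery or sham rests on them. Marker genes, none of them among the 7, placed 20426 of the cells in 13 gates, of which 10 had at least 10 cells in every replicate. A gate is named for its markers and stands for cells like that type. Defining markers were high in most gates, such as Elane at 14757 CPM (UMIs per 1000000 UMIs) in the neutrophil-granulocyte gate and Prss34 at 19634 CPM in the basophil-mast gate. In the stem-cell gate Ly6a, which encodes Sca1, was at only 7.05 CPM, whereas Mecom was at 317 CPM. The dendritic gate had just 291 cells and also held the B-cell gene Ebf1 at 640 CPM. Summed levels of macrophage, endothelial or stromal, and epithelial marker lists over all cells lay between 6.23 and 20.6 CPM in surgery and between 5.99 and 24.6 CPM in sham replicates, with overlapping ranges in each list.

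The members sit on 6 chromosomes of GRCm38, and all are protein-coding. Mgst2 spans chr3:51660360-51682677 on the plus strand, Mgst1 chr6:138140316-138156755 on the plus strand and Mgst3 chr1:167371966-167393841 on the minus strand. Alox5 spans chr6:116410077-116461178 on the minus strand, Alox5ap chr5:149264767-149288153 on the plus strand, Lta4h chr10:93453411-93484875 on the plus strand and Ltc4s chr11:50236461-50238616 on the minus strand. UMIs were counted per gene, so no exon or transcript is distinguished. Alox5ap and Ltc4s each overlap a gene on the opposite strand that is also in the tables (Gm19719 and Gm26542). The sources used here do not say if counting used the strand, so for those genes reads of the overlapping partner could not be told apart.

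The 250 bases before the RefSeq start are shown for Mgst2, the gene selected on surgery against sham. They are also shown for Mgst3 and Alox5, whose highest cell type stood farthest above the next one. Of the 7 members, 6 were matched to a RefSeq promoter by symbol, all but Alox5ap. Sequences are from RefSeq (GRCm38.p6), 5′ to 3′ on the strand of the gene. The RefSeq start of Mgst2 lies 819 bases downstream of the start annotated by GENCODE, so its stretch falls within the gene span given above, while for Mgst3 and Alox5 the starts coincide. Capitals mark matches on either strand to the GATA-factor letters GATAA, to the GC box GGGCGG, to the CCAAT box and to TGACNNNGC, which is part of the antioxidant response element.
Mgst2 (chr3:51660929-51661178, plus strand): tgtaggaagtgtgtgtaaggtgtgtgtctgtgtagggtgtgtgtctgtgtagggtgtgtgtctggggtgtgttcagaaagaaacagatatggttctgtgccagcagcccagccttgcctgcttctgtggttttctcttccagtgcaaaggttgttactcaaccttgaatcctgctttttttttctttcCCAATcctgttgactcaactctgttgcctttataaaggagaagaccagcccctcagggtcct
Mgst3 (chr1:167393842-167394091, minus strand): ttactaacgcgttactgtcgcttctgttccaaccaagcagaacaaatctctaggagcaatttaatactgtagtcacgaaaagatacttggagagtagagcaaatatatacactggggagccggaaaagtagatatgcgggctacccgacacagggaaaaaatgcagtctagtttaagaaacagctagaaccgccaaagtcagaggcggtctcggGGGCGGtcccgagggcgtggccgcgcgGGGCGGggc
Alox5 (chr6:116461179-116461428, minus strand): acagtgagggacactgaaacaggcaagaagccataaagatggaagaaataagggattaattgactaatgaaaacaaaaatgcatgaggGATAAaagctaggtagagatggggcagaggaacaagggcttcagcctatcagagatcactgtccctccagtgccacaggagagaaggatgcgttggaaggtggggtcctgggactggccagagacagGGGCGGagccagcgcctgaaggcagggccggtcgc

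The Mgst2 stretch held 1 CCAAT and none of the other motifs. The Mgst3 stretch held 2 GGGCGG matches close to the start and no GATAA, and the Alox5 stretch held 1 GATAA and 1 GGGCGG. Of 32841 RefSeq promoter stretches of the same length, 22.6% held GATAA, 32.7% GGGCGG, 33.9% CCAAT and 10.2% TGACNNNGC. These matches describe the letters only.

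Each member had its own pattern over the 10 gates with at least 10 cells in every replicate. Alox5 was highest in basophil-mast cells, Mgst3 in erythroid cells, Lta4h and Mgst2 in neutrophil-granulocyte cells, Mgst1 in monocyte cells, Alox5ap in basophil-mast and myeloid cells, and Ltc4s, at a low level, in the stem-cell and megakaryocyte gates. Orders and highest gates, here and below, refer to these 10 gates. The 3 smallest gates are left out of the order and are given pooled further on. In pooled counts, Lta4h, Mgst2 and Mgst1 were higher in mature neutrophils than in any of the 10 gates. Levels below are mean CPM ± SD over 8 replicates, both groups together. Neighbours in the order of the 10 gates were compared within replicates on log2(CPM + 1) by a two-sided exact permutation test over 256 sign flips, adjusted over 63 neighbour pairs. Its smallest possible p is 0.00781, and 25 pairs passed an adjusted p of 0.05. All of those pairs had an adjusted p of 0.0273 or 0.0394 in this exact permutation test. In 2 of them the lower gate is the dendritic one at 0 UMIs (erythroid above dendritic for Mgst1, monocyte above dendritic for Ltc4s), and both upper levels are below the 4.44 CPM that 3 UMIs are worth there, so those 2 are not resolved at this depth.

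**Figure D1:**
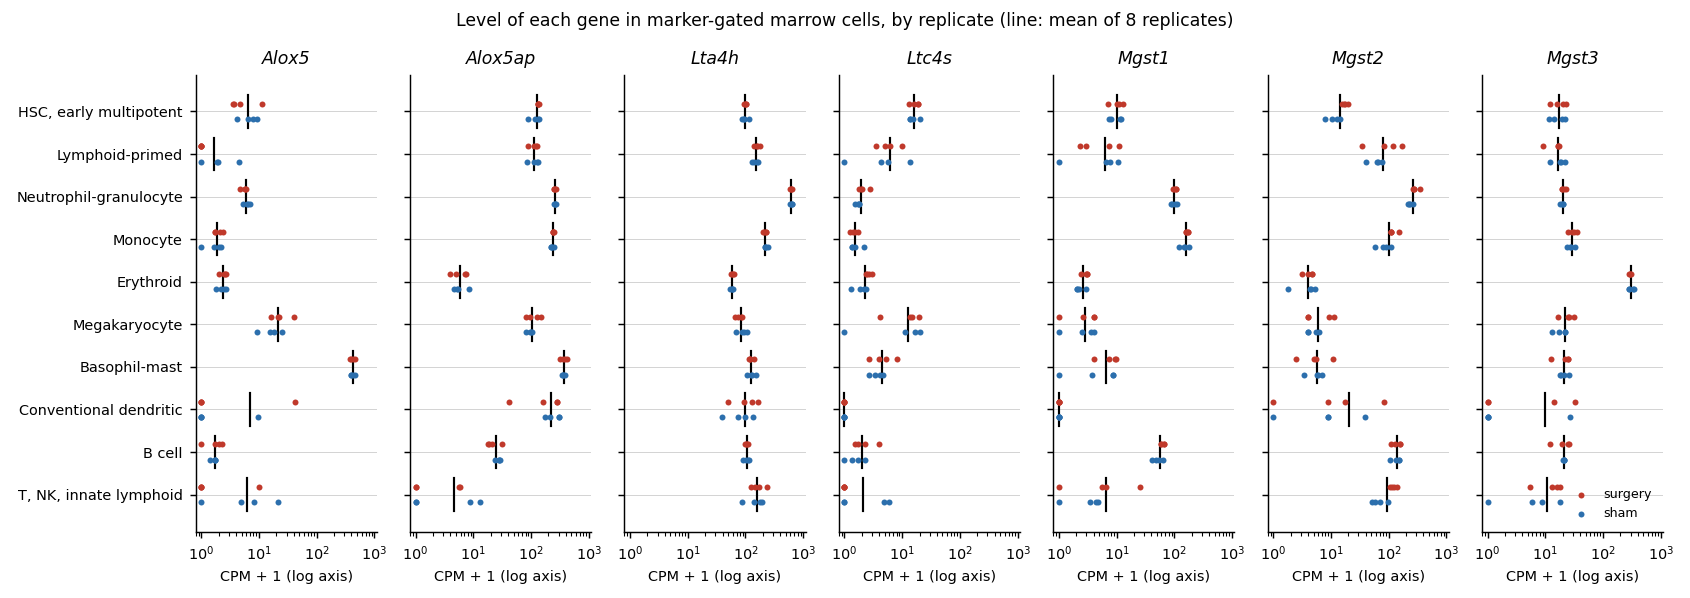
Level of each gene in the 10 marker-gated cell types, in CPM + 1 on a log axis; each point is 1 replicate, with surgery above sham in each row, and the vertical line is the mean of 8 replicates. Alox5 stands out in the basophil-mast row (417 CPM) and Mgst3 in the erythroid row (299 CPM), while Lta4h is found in every row.

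Alox5, the committing enzyme, had 71.0% of its UMIs in the basophil-mast gate. In the 4 surgery replicates of that gate it was at 395, 430, 378 and 461 CPM, against 398, 393, 465 and 419 CPM in the sham replicates. The groups overlapped and every replicate was high, with a mean of 417 ± 32.5 CPM. The next of the 10 gates, megakaryocyte, had 20.1 ± 9.36 CPM, lower in 8 of 8 replicates (adjusted exact permutation p = 0.0273). Mature neutrophils and eosinophil cells, which are outside this order, had 123 and 34.4 CPM in pooled counts, against 18.2 CPM pooled in megakaryocyte cells. From the megakaryocyte gate down through the dendritic, stem-cell, and T, NK or innate lymphoid gates to the neutrophil-granulocyte gate, no neighbouring pair passed this test. The neutrophil-granulocyte gate had 4.90 ± 0.709 CPM, and monocyte, erythroid, B-cell and lymphoid-primed gates were at or below 1.35 CPM. A UMI of Alox5 was found in 84.8% of basophil-mast cells at a median of 6439 UMIs per cell, and in 1.59% of erythroid cells at a median of 13063.5. With each cell thinned to 2000 UMIs these shares were 55.7% and 0.307%.

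Alox5ap, the partner of Alox5, was spread much more widely. It was at 363 ± 29.9 CPM in basophil-mast cells, 257 ± 8.97 in neutrophil-granulocyte cells and 235 ± 11.5 in monocyte cells, and each of these 2 steps was seen in 8 of 8 replicates (adjusted exact permutation p = 0.0273 for both). By clusters the first step did not pass, at 313 and 290 CPM (adjusted exact permutation p = 0.127). The dendritic gate followed with 218 ± 91.2 CPM, then the stem-cell gate with 125 ± 15.8, the lymphoid-primed gate with 112 ± 17.5 and the megakaryocyte gate with 104 ± 22.1, and no neighbouring pair among these differed beyond its spread. B cells had 23.6 ± 4.97 CPM, erythroid cells 4.89 ± 1.57 and T, NK or innate lymphoid cells 3.67 ± 4.55. In erythroid and in T, NK or innate lymphoid cells, pooled Alox5ap was at 2.55% and 2.69% of its level over all cells. Markers of other cell types had similar shares there (see Mgst2 below), so expression in those gates was not established.

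Lta4h, which makes leukotriene B4, was detected in every gate. It was highest in neutrophil-granulocyte cells at 615 ± 21.5 CPM, then in monocyte cells at 220 ± 13.4 CPM, a difference of 1.48 ± 0.04 on the log2 scale seen in 8 of 8 replicates (adjusted exact permutation p = 0.0273). The lowest gate, erythroid, still had 57.6 ± 3.13 CPM. Neutrophil-granulocyte cells held 71.7% of all Lta4h UMIs.

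Ltc4s, leukotriene C4 synthase, was sparse, with 662 UMIs over all cells. It reached 15.4 ± 2.67 CPM in the stem-cell gate and 11.6 ± 6.95 CPM in the megakaryocyte gate, which did not differ beyond their spread (adjusted exact permutation p = 0.448). By clusters the megakaryocyte class was the higher one and the difference passed, at 16 against 7.57 CPM (adjusted exact permutation p = 0.0224), so which of these cell types is highest depends on how the cells are defined. The stem-cell gate rested on 127 UMIs and the megakaryocyte gate on 61. The lymphoid-primed gate had 5.14 ± 3.86 CPM and the basophil-mast gate 3.40 ± 1.82, and other gates were at or below 1.28 CPM. A UMI was found in 8.89% of the stem-cell gate and in 0.540% of the deeper monocyte cells. No Ltc4s UMI was found in the dendritic gate, where 3 UMIs would be 4.44 CPM, so a lower level could not have been seen there.

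Among the transferases, Mgst1 was highest in monocyte cells at 158 ± 18.4 CPM, then in neutrophil-granulocyte cells at 99.8 ± 8.12 and B cells at 56.4 ± 8.92 CPM, each step seen in 8 of 8 replicates (adjusted exact permutation p = 0.0273). The stem-cell gate had 9.12 ± 2.26 CPM, and every other gate was lower. In erythroid and megakaryocyte cells pooled Mgst1 was at 1.76% and 2.48% of its level over all cells. Such shares are also seen for markers of other cell types (see Mgst2 below), so expression there was not established. Mgst3 was at 299 ± 24.6 CPM in erythroid cells and 28.0 ± 3.80 CPM in monocyte cells, the next gate, in 8 of 8 replicates (adjusted exact permutation p = 0.0273). A Mgst3 UMI was found in 65.2% of erythroid cells. The step from monocyte to megakaryocyte also passed (adjusted exact permutation p = 0.0394), and the other 7 did not. Each of the 8 gates below monocyte was between 8.97 and 20.7 CPM.

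Mgst2 was at 262 ± 39.1 CPM in neutrophil-granulocyte cells, above B cells at 136 ± 21 and monocyte cells at 101 ± 27.1 CPM, each step in 8 of 8 replicates (adjusted exact permutation p = 0.0273). By clusters monocyte cells came second, at 151 CPM, so the order of B and monocyte cells depends on how the cells are defined. T, NK or innate lymphoid cells had 93.5 ± 31.9 CPM and lymphoid-primed cells 80.2 ± 43.9, and neither step differed beyond its spread. The dendritic gate came next at 19.8 ± 27.4 CPM, on only 7 UMIs, and the stem-cell gate followed at 13.5 ± 3.86 CPM. Neither the step into nor out of the dendritic gate passed (adjusted exact permutation p = 0.0527 and 0.583). Lymphoid-primed and stem-cell gates were not compared directly. Megakaryocyte, basophil-mast and erythroid cells were at 5.04, 4.77 and 3.06 CPM. A Mgst2 UMI was found in 76.8% of neutrophil-granulocyte cells, in 7.57% of the stem-cell gate and in 4.02% of erythroid cells, which are deeper than the stem-cell gate. After thinning the last 2 shares were 2.60% and 0.571%. Markers of other cell types were set beside Mgst2 as a yardstick for low counts in a gate. Free RNA was not measured, and the source of such counts was not tested. In erythroid cells Elane, Prss34 and Ebf1 were at 2.07%, 2.23% and 2.46% of their level over all cells, and Mgst2 was at 2.22%. Its erythroid share thus lay within the range of these markers, so expression there was not established. In the stem-cell gate the same markers were at 2.61%, 2.77% and 2.42%, and Mgst2 was at 9.40%. Other markers of the neutrophil-granulocyte list varied in the stem-cell gate. Prtn3 was at 467 CPM against 3990 CPM over all cells, Ctsg at 277 against 3054 and Gfi1 at 13.4 against 56.6. Cebpe was at 1.91 against 76.5 CPM and Fcnb at 3.94 against 155. Whether the stem-cell Mgst2 level exceeds counts from outside the gate was not tested. In megakaryocyte and basophil-mast cells Mgst2 was at 3.33% and 3.34%. The markers Elane, Ebf1 and, outside basophil-mast cells, Prss34 were at 1.99% to 3.90% in those 2 gates, so expression was not established there either. Elane, Prss34 and Ebf1 were chosen after their values were seen. Basophil-mast cells, the highest gate for Alox5 and Alox5ap, were thus far below the highest gate for Mgst2 and for Ltc4s.

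The 3 smallest gates had under 10 cells in at least 1 replicate, so their counts were pooled and carry 95% exact Poisson intervals for counting error only. The 40 mature neutrophils had Lta4h at 806 CPM (706 to 916), Alox5ap at 381 (313 to 459), Mgst2 at 343 (279 to 417), Mgst1 at 237 (184 to 300) and Alox5 at 123 (86.5 to 171). The 86 eosinophil cells had Lta4h at 575 CPM (510 to 645), Alox5ap at 178 (143 to 219) and Alox5 at 34.4 (20 to 55.1). The 48 plasmacytoid cells had Lta4h at 180 CPM (123 to 255) and no Alox5 UMI (upper bound 20.8). These values have no replicate check and were not tested against the other gates. Pooled in the same way, the neutrophil-granulocyte gate had Lta4h at 616 CPM and Mgst2 at 259 CPM. The monocyte gate had Mgst1 at 159 CPM. All of these were below the pooled mature neutrophils.

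Genes with the most similar pattern were sought by Pearson's r of log2(CPM + 1) over 80 points, the 10 gates in 8 replicates. The points of a replicate share a library, so r is a description without a p. Among 7274 genes that were neither members nor markers, Alox5 was closest to Csrp3 (r = 0.87), Cd200r3 (0.81) and Cdh1 (0.78). For Alox5ap, Lst1 (0.91) and Ckap4 (0.88) were the closest. Lta4h was closest to Rnaset2a (0.85), Rnaset2b (0.84) and Prdx5 (0.83); the first pair are near-identical copies whose reads may be shared. Ltc4s was closest to Myct1 (0.79), Spns2 (0.77) and Meis1 (0.76), a homeobox gene of stem cells. Mgst1 was closest to Sem1 (0.80), Ptgr1 (0.79) and Atp6v1a (0.77), and Ptgr1 encodes an enzyme that inactivates leukotriene B4. Mgst2 was closest to Nav2 (0.76), Pde2a (0.72) and Srpk2 (0.72), and Mgst3 to Nup43 (0.85), Cox6a1 (0.79) and Snrpg (0.78).

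Over all cells, Mgst2 was higher in every surgery replicate than in any sham replicate. It was at 153 and 151 CPM in the batch 1 surgery replicates and at 224 and 164 CPM in those of batch 2, against 144 and 120 CPM in the batch 1 sham replicates and 126 in both of batch 2. The groups did not overlap, and 1 surgery replicate of batch 2 lay well above the rest. Of 17252 genes tested in all cells, 0.73% had every surgery replicate above every sham replicate. The fitted log2 fold change of Mgst2 was 0.43 ± 0.12 (SE), and 0.29 ± 0.06 without that surgery replicate. The ratio of group means on the log2 scale was 0.21 in batch 1 and 0.62 in batch 2. Neutrophil-granulocyte cells held 72.2% of all Mgst2 UMIs, and their share of cells was 39.0% in the highest surgery replicate, 24.4% to 30.2% in the other surgery replicates and 25.1% to 27.8% in sham replicates. In sums over all cells, more cells of a type and more RNA per cell cannot be told apart.

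**Figure D2:**
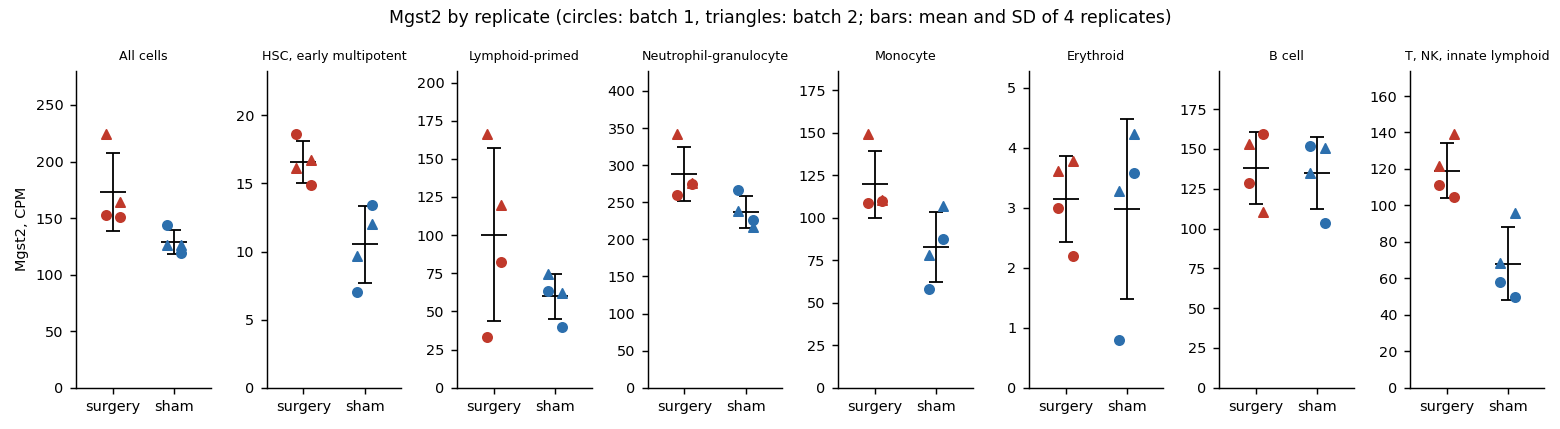
Mgst2 in CPM by replicate for all cells and the 7 gates with enough counts to fit, surgery left of sham, circles for batch 1 and triangles for batch 2; bars are the mean and SD of 4 replicates. The groups are apart in all cells, in the stem-cell, monocyte and T, NK or innate lymphoid gates, and mixed in the erythroid and B-cell gates.

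Within gates the groups were apart in some cell types and mixed in others. In neutrophil-granulocyte cells Mgst2 was at 260, 275, 342 and 275 CPM in surgery replicates, against 267, 227, 238 and 216 CPM in sham replicates. The groups overlapped in batch 1 and not in batch 2, and the log2 fold change was 0.29 ± 0.09, or 0.19 ± 0.06 without the highest surgery replicate of batch 2. In monocyte cells it was at 109, 110, 149 and 110 CPM in surgery replicates, against 57.9, 87.6, 78.3 and 107 CPM in sham replicates. The groups did not overlap, as was so for 1.08% of the genes tested there, and the log2 fold change was 0.47 ± 0.11. The 6 neutrophil-granulocyte markers, which monocyte cells also carry, summed to 7768 to 8581 CPM in the monocyte cells of surgery replicates and 7181 to 8337 CPM in those of sham replicates, overlapping ranges in a sum made up mostly of Elane, Prtn3 and Ctsg. Of the 6, Fcnb, a ficolin gene of granule-forming neutrophils, was called higher in surgery in this same gate, at 23.2, 27.2, 28.4 and 27.1 CPM in surgery replicates, against 15.5, 13.9, 17.3 and 21.1 CPM in sham replicates. Its log2 fold change was 0.66 ± 0.12 (edgeR adjusted p = 0.0391), and under 19 alternatives it lay between 0.06 (clusters) and 1.02, with 5 calls. That of Elane was 0.21 ± 0.05 (edgeR adjusted p = 0.195). Those of Gfi1, Prtn3, Cebpe and Ctsg were 0.39 ± 0.23, 0.06 ± 0.04, 0.01 ± 0.29 and -0.02 ± 0.03, and none of these was called. Fcnb was singled out because it was called. The part of these markers in the Mgst2 difference was not tested.

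In the stem-cell gate Mgst2 was at 18.6, 14.9, 16.1 and 16.7 CPM in surgery replicates, against 7.03, 13.4, 9.64 and 12 CPM in sham replicates. The groups did not overlap, as was so for 0.898% of the genes tested there, and the log2 fold change was 0.58 ± 0.27. These values rest on 12 to 23 UMIs in each surgery replicate and 5 to 22 in each sham replicate. In T, NK or innate lymphoid cells it was at 111, 105, 122 and 139 CPM in surgery replicates, against 58.0, 49.7, 68.4 and 95.7 CPM in sham replicates. The groups again did not overlap, as for 0.924% of the genes tested there, with a log2 fold change of 0.86 ± 0.24 on 81 and 75 UMIs.

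In lymphoid-primed cells Mgst2 was at 33.0, 82.1, 166 and 120 CPM in surgery replicates, against 63.3, 39.7, 74.7 and 62.2 CPM in sham replicates. The batch 1 replicates overlapped, with a log2 ratio of means of 0.16, and the batch 2 replicates did not, with a log2 ratio of 1.06. B cells had 129, 159, 153 and 111 CPM in surgery replicates, against 152, 103, 135 and 151 CPM in sham replicates, so the groups were fully mixed. Erythroid cells had 3.15 ± 0.718 CPM in surgery and 2.97 ± 1.5 CPM in sham replicates (SD, n = 4 each), also mixed. Expression in erythroid cells was not established above, so a difference there could have been missed. The fitted log2 fold changes were 0.79 ± 0.21, 0.05 ± 0.13 and -0.02 ± 0.35 in lymphoid-primed, B and erythroid cells. Whether the fold change differs between cell types was not tested.

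How the cells were defined moved some of these values. In the stem-cell gate only 17 surgery and 15 sham UMIs were left after thinning each cell to 2000 UMIs, and the groups overlapped. With each cell thinned to 2000 UMIs, so that deep cells no longer weigh more, the lymphoid-primed log2 fold change was 0.07 ± 0.28, on 54 surgery and 70 sham UMIs, and that of monocyte cells was 0.24 ± 0.15, with the groups overlapping. A stricter gate gave 0.89 in lymphoid-primed and 0.30 in monocyte cells, where the groups also overlapped. In the stem-cell gate the stricter cut left 18.7, 10.7, 9.23 and 24.3 CPM in surgery replicates, against 0, 21.2, 17.1 and 0 CPM in sham replicates, which overlapped too. Clusters named from the same markers gave 0.90 in the stem-cell class, 0.44 in monocyte cells and 0.23 in neutrophil-granulocyte cells, with no overlap in any of these 3. For clusters and thinned cells the share of all genes without overlap is not given here. The stem-cell class of clusters held 2755 cells against 1282 in the gate. Its Mgst2 level was 42.7 CPM in surgery and 22.0 CPM in sham replicates, so it is not the same population. Monocyte clusters held 4898 cells against 2780 in the gate, and neutrophil-granulocyte clusters 3710 against 7453, so these populations differ too. T, NK or innate lymphoid cells kept groups that did not overlap after thinning and by clusters, but not under the stricter gate.

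**Figure D3:**
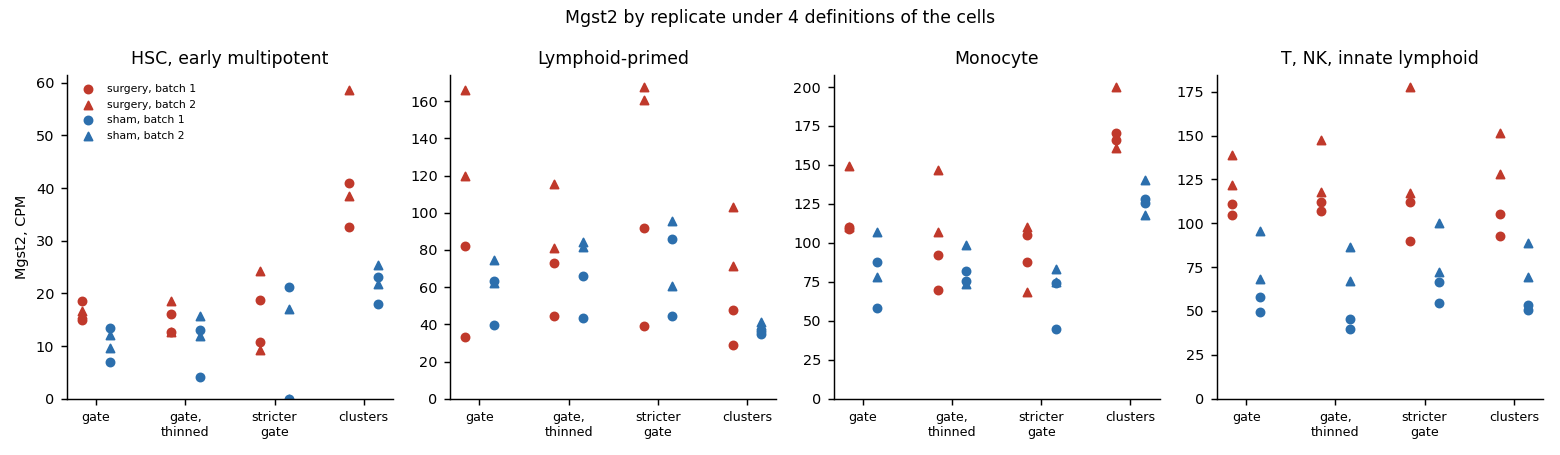
Mgst2 in CPM by replicate in 4 cell types under 4 definitions of the cells (marker gate, gate with each cell thinned to 2000 UMIs, stricter gate, clusters), surgery left of sham, circles for batch 1 and triangles for batch 2. The groups of the monocyte gate are apart on the left of its panel and overlap after thinning and under the stricter gate.

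Maml3, a Notch coactivator gene that follows Mgst2 at chr3:51685907-52105076, also differed in T, NK or innate lymphoid cells, where it was the 1 gene called of 4436 tested. It was at 272, 177, 280 and 318 CPM in surgery replicates of that gate, against 86.9, 76.4, 127 and 123 CPM in sham replicates. The groups were far apart, with a log2 fold change of 1.36 ± 0.19 (edgeR adjusted p = 0.00117). Under 19 alternatives its fold change stayed positive, between 0.82 and 1.45, and the call ended in 4 of them: with thinned cells (edgeR adjusted p = 0.482), the stricter gate (1.0), clusters (0.322), and without the second sham replicate of batch 1 (0.0913). Maml3 was not called in the stem-cell gate, with a log2 fold change of 0.08 ± 0.08, or in lymphoid-primed cells, with 0.19 ± 0.09 (edgeR adjusted p = 1.0 and 0.523). Setd7, a histone methyltransferase gene at chr3:51515319-51560879 and chosen after its values were seen, had 0.40 ± 0.13, 0.21 ± 0.14 and, in T, NK or innate lymphoid cells, 0.04 ± 0.29 (edgeR adjusted p = 1.0, 0.727 and 1.0).

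None of the other 6 members passed the test between surgery and sham over all cells. The test was edgeR's quasi-likelihood test with batch as a term, and p-values were adjusted by the Benjamini-Hochberg method over all genes tested. It called 0 of 6 members, at a background of 0.0406% of 17252 genes called (6 higher and 1 lower), and DESeq2 also called 0 of 6. At an unadjusted p under 0.05 there were 3 of 6, against 4.50% of all genes. The median log2 fold change of the 6 was 0.10, beside -0.00 over all genes tested.

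Mgst1 was at 84.9, 87.2, 89.0 and 95.4 CPM in surgery replicates, against 70.6, 71.6, 87.0 and 93.0 CPM in sham replicates. The groups were apart in batch 1 and overlapped in batch 2, and the log2 fold change was 0.17 ± 0.05 (edgeR adjusted p = 1.0). Alox5ap was at 184, 185, 217 and 200 CPM in surgery replicates, against 178, 175, 188 and 205 CPM in sham replicates. Its log2 fold change was 0.09 ± 0.04 (edgeR adjusted p = 1.0). Mgst3 was at 50.7, 46.4, 41.1 and 50.4 CPM in surgery replicates, against 52.9, 67.4, 66.3 and 45.4 CPM in sham replicates. It had the lowest fold change of the 6, -0.29 ± 0.13 (edgeR adjusted p = 1.0). Erythroid cells, where Mgst3 is high, made up 6.72% to 9.24% of cells in surgery replicates and 7.63% to 11.2% in sham replicates, and within erythroid cells its log2 fold change was -0.10 ± 0.07.

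Lta4h averaged 364 CPM in surgery and 341 CPM in sham replicates, with a log2 fold change of 0.10 ± 0.07. Alox5 averaged 14.6 CPM in surgery and 15.8 CPM in sham replicates, with -0.10 ± 0.08. Ltc4s averaged 2.45 CPM in surgery and 2.16 CPM in sham replicates, with 0.18 ± 0.18. For all 3 the edgeR adjusted p was 1.0.

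**Figure D4:**
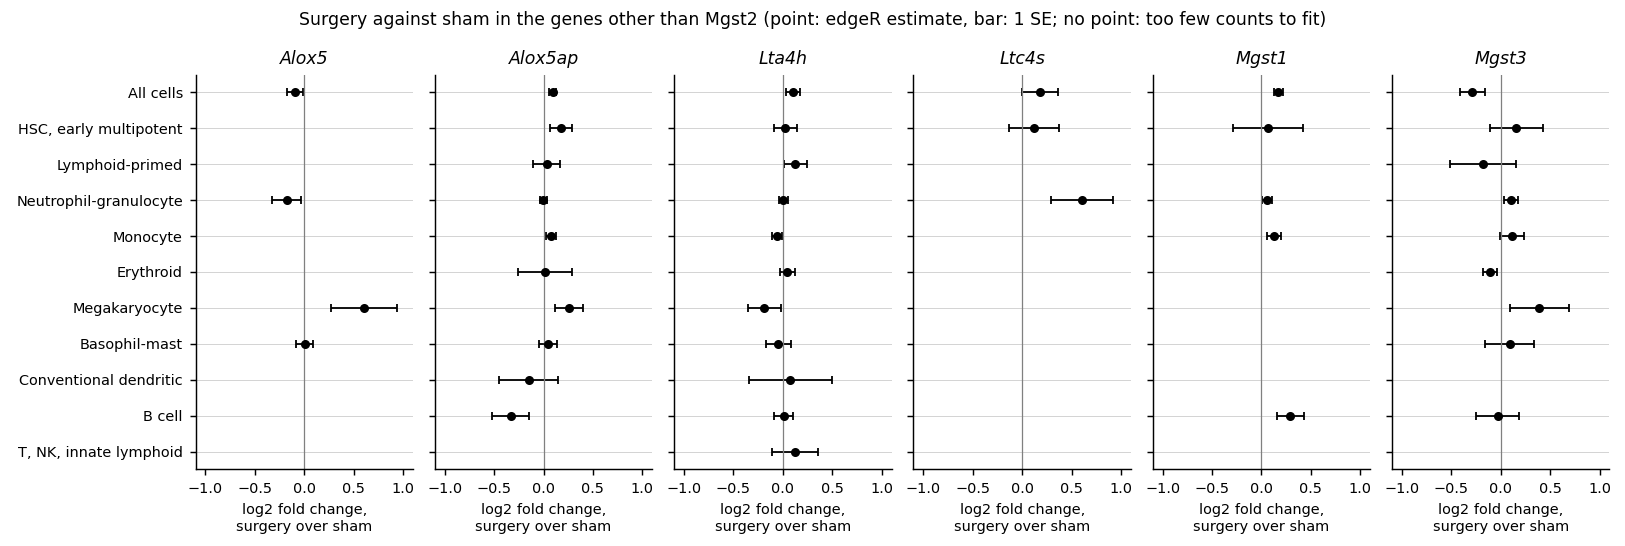
Log2 fold change of surgery over sham, with 1 SE, for the 6 genes other than Mgst2 in all cells and 10 gates; a row without a point had too few counts to fit. The estimates lie between -0.33 (Alox5ap, B cells) and 0.61 (Ltc4s, neutrophil-granulocyte cells) in the gates and none passed the test.

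Within the gates none of the 6 was called either. The background share of genes called was 0.0423% in the stem-cell gate, 0.277% in lymphoid-primed, 0.0215% in neutrophil-granulocyte, 0.111% in monocyte, 0% in erythroid, 0.0127% in megakaryocyte, 0.0114% in basophil-mast, 0% in dendritic, 0.00991% in B and 0.0225% in T, NK or innate lymphoid cells. DESeq2 called 0 members in the same gates. Few genes of any kind were called, so the absence of members among them says little about the members. Only Mgst1 in B cells had an unadjusted p under 0.05, with a log2 fold change of 0.29 ± 0.13, and in batch 2 its groups overlapped.

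For Alox5, Alox5ap and Lta4h, estimates lay close to 0 in the following gates where these genes were high. In basophil-mast cells the log2 fold change of Alox5 was 0.00 ± 0.08 and that of Alox5ap 0.04 ± 0.09. In neutrophil-granulocyte cells that of Lta4h was 0.00 ± 0.04 and that of Alox5ap -0.00 ± 0.04. Sparse genes were far less precise, as for Alox5 in megakaryocyte cells, at 0.60 ± 0.33 on 44 surgery and 42 sham UMIs. Ltc4s in neutrophil-granulocyte cells was at 0.819, 1.78, 0.981 and 0.961 CPM in surgery replicates, against 0.507, 0.758, 0.75 and 0.818 CPM in sham replicates. The groups did not overlap, as was so for 0.84% of the genes tested there, though the lowest surgery and highest sham values were almost equal, on 9 to 19 UMIs in each surgery replicate and 4 to 15 in each sham replicate, and the log2 fold change of 0.61 ± 0.31 did not pass (edgeR adjusted p = 1.0). Ltc4s in erythroid cells, with too few counts to fit, was at 1.33, 1.46, 2.07 and 1.68 CPM in surgery replicates, against 1.2, 1.33, 0.892 and 0.282 CPM in sham replicates. These groups did not overlap either, on 20 UMIs each. Of the genes with enough counts to be tested there, which leave out Ltc4s, 0.98% had every surgery replicate above every sham replicate.

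A list of 66 further genes covered arachidonate release and uptake, other lipoxygenases, the 5-lipoxygenase partner, prostanoid enzymes, export and breakdown, receptors, glutathione metabolism, and regulators and targets of NRF2, the oxidative stress factor. Over all cells 57 of them could be tested, and 0 were called by edgeR in either direction; 7 had an unadjusted p under 0.05 (12.3%). Over all genes tested in all cells 0.0406% were called and 4.50% had an unadjusted p under 0.05. In the list, 37 were higher and 20 lower, with a median log2 fold change of 0.02, beside -0.00 over all genes tested. The lowest adjusted p was 0.569, of Gpx3, an extracellular glutathione peroxidase gene named after its value was seen, with a log2 fold change of 0.38.

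**Figure D5:**
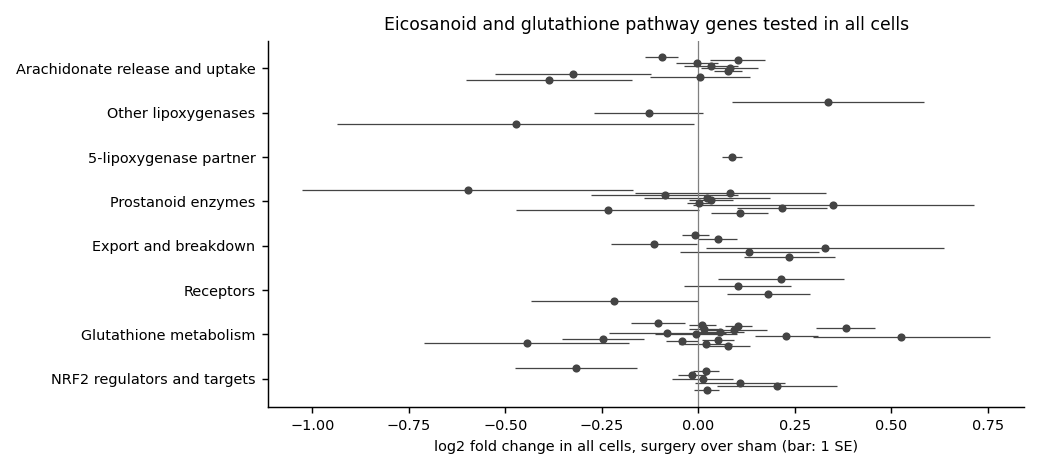
Log2 fold change of surgery over sham in all cells, with 1 SE, for the 57 tested genes of the pathway list, by function. The points lie on both sides of 0 in every group that has more than 1 gene, and none passed the test.

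By function, the 9 genes of arachidonate release and uptake split 5 higher and 4 lower. Acsl4, which activates arachidonate, had -0.10 ± 0.04, and Pla2g4a, the cytosolic phospholipase that releases it, had 0.08 ± 0.04 on the log2 scale. Pla2g4a was highest in megakaryocyte cells at 135 CPM and in the stem-cell gate at 118 CPM. Of the other lipoxygenases, Alox15 and Alox12e were both highest in basophil-mast cells, at 53.2 and 37.2 CPM, with below 1 CPM in the next gate, and had log2 fold changes of -0.13 ± 0.14 and 0.34 ± 0.25. Cotl1, whose human product binds 5-lipoxygenase, had a log2 fold change of 0.09 ± 0.03 and was highest in dendritic cells at 623 CPM.

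The prostanoid enzymes split 7 higher and 3 lower. Ptges3, a prostaglandin E synthase and HSP90 cochaperone, had a log2 fold change of 0.00 ± 0.03. Tbxas1, thromboxane synthase, had 0.11 ± 0.07 and was highest in megakaryocyte cells at 295 CPM. Of the genes of export and breakdown, 4 were higher and 2 lower among 6 tested. Ptgr1 had a log2 fold change of 0.24 ± 0.12 and levels of 287 CPM in neutrophil-granulocyte and 272 CPM in B cells, and Abcc4, an exporter of prostanoids and leukotrienes, had 0.05 ± 0.05.

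Receptors were uneven over the gates. Ltb4r1, the high-affinity receptor of leukotriene B4, was highest in neutrophil-granulocyte cells at 129 CPM, the gate with the highest Lta4h, and had a log2 fold change of 0.18 ± 0.11. Cysltr2, a receptor of cysteinyl leukotrienes, was highest in T, NK or innate lymphoid cells at 53.2 CPM and had 0.10 ± 0.14. Of 17 glutathione genes 11 were higher and 6 lower. Gpx1, a glutathione peroxidase, had 0.10 ± 0.04, and Gclm, a subunit of the enzyme that starts glutathione synthesis, had 0.01 ± 0.03. Nfe2l2, which encodes NRF2, had -0.02 ± 0.04, and its target Txnrd1 had 0.02 ± 0.03.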

How the data were processed

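The deposited matrices hold raw UMI counts per gene and barcode, with hashtag counts as further lines. Per the submitters' processing notes Cell Ranger and GRCm38 were used; versions are not given in the sources used here. Hashtag lines (22.2% of all counts in batch 1, 16.1% in batch 2) stayed out of library sizes and tests.

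Barcodes with at least 500 genes, 1000 UMIs, at most 10% mitochondrial UMIs and exactly 1 hashtag of at least 200 counts were kept. Scrublet called 0.238% and 0.220% of them, under 0.5%, so it had not worked and its calls were kept; the hashtag rule had removed 602 and 322 barcodes with several hashtags, which leaves doublets within a replicate; leaving out the 5% of cells with most UMIs was added as an alternative after seeing this. A gate score was the mean over a type's markers of ln(1 + UMIs per 10000) divided by its 99.5th percentile and capped at 1; a cell was gated at a score of at least 0.25, with a gap of 0.1 to the second type and 2 markers detected (stricter: 0.4 and 0.2). Depth was 19521590 to 51862441 UMIs per replicate, and Poisson intervals and limits from 3 UMIs cover counting error only.

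UMIs were summed per replicate and gate and fitted with edgeR 4.0.16 (R 4.3.3; filterByExpr, TMM, batch and group, quasi-likelihood test); DESeq2 1.42.0 was an alternative. The SE is the fold change divided by the root of the F statistic. A positive fold change (log2) means higher in surgery, CPM are without TMM factors, and "changed" means an adjusted p under 0.05. Coordinates are from GENCODE mouse release 21, which held 32098 of 32227 gene identifiers. Leiden clusters came from scanpy 1.11.5. The tests were tested on simulated data.

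Members, gene lists and tests were chosen with earlier results of these data known. Named pathway genes are the 2 of highest mean CPM in each function group. Genes named for a similar pattern are the 3 of highest r with a mean of at least 20 CPM; 1 of them is not reported here.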

Additional observations from a re-analysis of the deposited data

Results flagged for a closer look

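Of 100 groups of 4 replicates, 3 held a replicate far from the other 3; such a gap arises by chance in about 1 group in 20. Mgst2 in monocyte cells was at 149 CPM in the first surgery replicate of batch 2, on 268 UMIs, with the other surgery replicates between 109 and 110 CPM. Mgst3 in lymphoid-primed cells was at 8.26 CPM in the first surgery replicate of batch 1, on 6 UMIs, with the others between 15.3 and 16.6 CPM. Ltc4s in neutrophil-granulocyte cells was at 1.78 CPM in the second surgery replicate of batch 1, on 19 UMIs, with the others between 0.819 and 0.981 CPM.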

How the results depend on the processing

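The counts of called members (other than Mgst2) stayed at 0 under 17 alternatives in all cells and 19 in the gates, and that of pathway genes at 0 under 17: DESeq2, library sizes alone, no low-count filter, no batch term, each replicate left out, a hashtag minimum of 500 counts, doublet calls or the 5% deepest cells removed, thinning and, for gates, a stricter gate and clusters. The replicate block also gave 0, 0 and 0. Deviations of same-numbered replicates had correlations of 0.06 in batch 1 and -0.05 in batch 2. No pairing by number was seen, but these values cannot exclude one. Over all genes in all cells, 7 were called, against 0 with the replicate block, 0 without the batch term, 4 when thinned, 22 without the low-count filter, 21 by DESeq2 and 0 to 8 with a replicate left out; in the gates, dropping the filter gave 84 calls against 3 in neutrophil-granulocyte cells and 55 against 13 in monocyte cells, and clusters gave 83 against 0 in dendritic and 13 against 4 in stem cells. In all cells each of the 7 members kept the sign of its fold change under all 17. The 25 neighbour pairs past the threshold became 14 of 56 when thinned, where 1 gate fewer could be compared, beyond which the cause was not tested, and 0 to 22 with a replicate left out; with 7 replicates the smallest exact p is larger, so most adjusted values cannot pass. Mgst2 kept a positive fold change in the stem-cell, lymphoid-primed, neutrophil-granulocyte, monocyte and T, NK or innate lymphoid gates under every alternative that could be fitted, from 0.07 (lymphoid-primed, thinned) to 1.06. Its sign in B cells (-0.09 to 0.18) and erythroid cells (-0.19 to 0.33) was not stable. Mgst2 was selected on this difference in these same cells, and the alternatives reuse their counts. Its stable sign, in gates and in all cells, is therefore a description and no separate support. The highest of the compared gates for each member was the same under all 13 alternatives, except that of Ltc4s, which was the megakaryocyte gate after thinning and by clusters. Depth limits Ltc4s everywhere and every member in the dendritic gate.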
